A study of Rattus norvegicus with 23 samples.

Results

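The livers of rats with experimental vascular liver injury were examined for the transcripts of 10 genes that make and shape plasma lipoproteins: the apolipoproteins Apoa1, Apoa2, Apoa4, Apoa5, Apob, Apoc1, Apoc2, Apoc3 and Apoe, and Mttp, the microsomal triglyceride transfer protein. They were taken by symbol from a count table of 28913 rows. All 10 had a row, and all 10 were among the 15079 genes that passed the filter on low counts. Hepatocytes assemble very low density lipoprotein (VLDL) by loading lipid onto newly made Apob with the help of Mttp, and they secrete Apoa1 and Apoa2, the main proteins of high density lipoprotein (HDL). The smaller apolipoproteins move between particles and set how fast triglyceride is removed: Apoc2 activates lipoprotein lipase, Apoc3 slows clearance, Apoa5 promotes it, and Apoe is a ligand for hepatic uptake receptors.

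The libraries came from Sprague Dawley rat liver, made from poly(A) RNA with a strand-specific kit, and fell into 3 groups. The 6 Control libraries came from rats with no treatment. The 7 LPS libraries came from rats that had abdominal surgery to place a permanent portal line, through which 1 mg/kg of LPS (bacterial lipopolysaccharide) was given 2 times a week over 8 weeks. The 10 Selfox libraries came from rats that ate selenium-enriched food over 8 weeks and had 8 weekly intravenous injections that combined 3 mg/kg oxaliplatin, 25 mg/kg 5-FU and 45 mg/kg folinic acid. The labels record no sham surgery or vehicle injection for the Control rats, so surgery and LPS, and diet and drugs, cannot be told apart. The labels give neither age nor sex. Libraries are called by the numbers in their labels.

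Library totals ran from 31889957 to 53806710 counts for Control, 70372293 to 79249765 for LPS and 65113145 to 74809989 for Selfox, so that depth cannot be told apart from the difference between Control and the other groups. Of the 10 listed hepatocyte markers 9 had a row, which by itself says nothing of the tissue. The albumin gene Alb alone accounted for an average of 13.4% (Control), 10.9% (LPS) and 9.42% (Selfox) of library counts, which fitted the tissue label. Of the enterocyte markers, which matter because the intestine also makes Apoa1, Apoa4 and Apob, Alpi was at 0 in all 23 libraries, and Vil1 lay between 0.0511 and 0.337 CPM (counts scaled to a common library total). Cdh17 ranged from 1.58 to 301 CPM. Dbp, an output of the circadian clock, lay above the core clock gene Arntl in 5 libraries, namely LPS 5, LPS 6, LPS 7, Control 55 and Selfox 8. In Selfox 8 the 2 genes were nearly equal, at 3.352 and 3.348 log2 CPM, so this library sits at the cutoff. Results whose call or sign changes without the 5 libraries are given as such.

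Together the 10 genes took 2.72% ± 0.121 (SD, n = 6) of all counts in Control, 2.76% ± 0.168 (n = 7) in LPS and 2.78% ± 0.113 (n = 10) in Selfox. Most of that share came from Apob (0.930%, 1.07% and 1.11% in Control, LPS and Selfox) and Apoe (0.869%, 0.838% and 0.860%). The sum therefore says little of the other genes. Single genes moved in opposite directions. In LPS against Control, 1 of the 10 rose (Apoa2) and 1 fell (Apoa5) at a Benjamini-Hochberg adjusted p under 0.05 in edgeR's quasi-likelihood test, beside 14.7% of all genes tested (7.71% higher and 6.99% lower). In Selfox against Control, 3 rose (Apoa2, Apob and Apoc1) and 3 fell (Apoa1, Apoa4 and Apoa5), beside 29.1% of all genes (14.2% higher and 14.9% lower). Between the 2 treated groups, 1 of the 10 differed, Apoa1, which was lower in Selfox, beside 14.5% of all genes (6.86% higher and 7.64% lower). Shares of 2 and 1 in 10 lie close to their backgrounds and are no result about the 10 as a set. The median log2 fold change of the 10 was 0.014, 0.0098 and -0.023 in the 3 comparisons, against 0.0058, 0.011 and 0.0016 over all genes. LPS and Selfox were compared with the same Control libraries, so their values are given side by side and no overlap is read from them. In whole tissue, fewer cells of a type and less RNA per cell cannot be told apart.

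Apoa1, the structural protein of HDL and the activator of the cholesterol-esterifying enzyme Lcat, had the largest fall of the 10 genes in Selfox. Its level was 1440 CPM at the lowest, 1724 at the median and 2044 at the highest in Control. In LPS these values were 836, 1240 and 1855 CPM, and in Selfox 566, 899 and 1037 CPM. Every Selfox library lay below every Control library, a separation found in 4.91% of all genes (2.37% higher and 2.55% lower), while the LPS libraries spread across both ranges, 4 of 7 of them under the whole Control group. The log2 fold change was -1.02 ± 0.15 (SE) in Selfox against Control (edgeR adjusted p = 3.32e-05), so that Selfox stood at 0.494 times the Control level. In LPS against Control it was -0.40 ± 0.16 and did not pass (edgeR adjusted p = 0.0992), although it did when LPS 5, the LPS library with the highest Apoa1, was left out (-0.50, adjusted p = 0.0384). Selfox was also lower than LPS, by a log2 fold change of -0.62 ± 0.14 (edgeR adjusted p = 0.00492), with 4 of 10 Selfox libraries below all LPS libraries. The order of the levels was therefore Control, LPS, Selfox, with the first 2 not separated by the test.

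Apoa2, the second protein of HDL, moved the other way. Control libraries held 252 CPM at the lowest, 335 at the median and 396 at the highest. LPS libraries held 439, 505 and 804 CPM, and Selfox libraries 431, 493 and 574 CPM. No treated library overlapped the Control group in either model, which in LPS was the case for 3.64% of all genes (1.83% higher and 1.81% lower). The log2 fold change was 0.74 ± 0.13 in LPS (edgeR adjusted p = 0.000657) and 0.62 ± 0.12 in Selfox (edgeR adjusted p = 0.000488). LPS and Selfox did not differ past the threshold, with a log2 difference of -0.12 and a 95% interval from -0.34 to 0.11. The highest single value, 804 CPM, was that of LPS 5, and without the 5 libraries with Dbp above Arntl the sign of the difference between Selfox and LPS turned (0.074, adjusted p = 0.724).

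**Figure D1:**
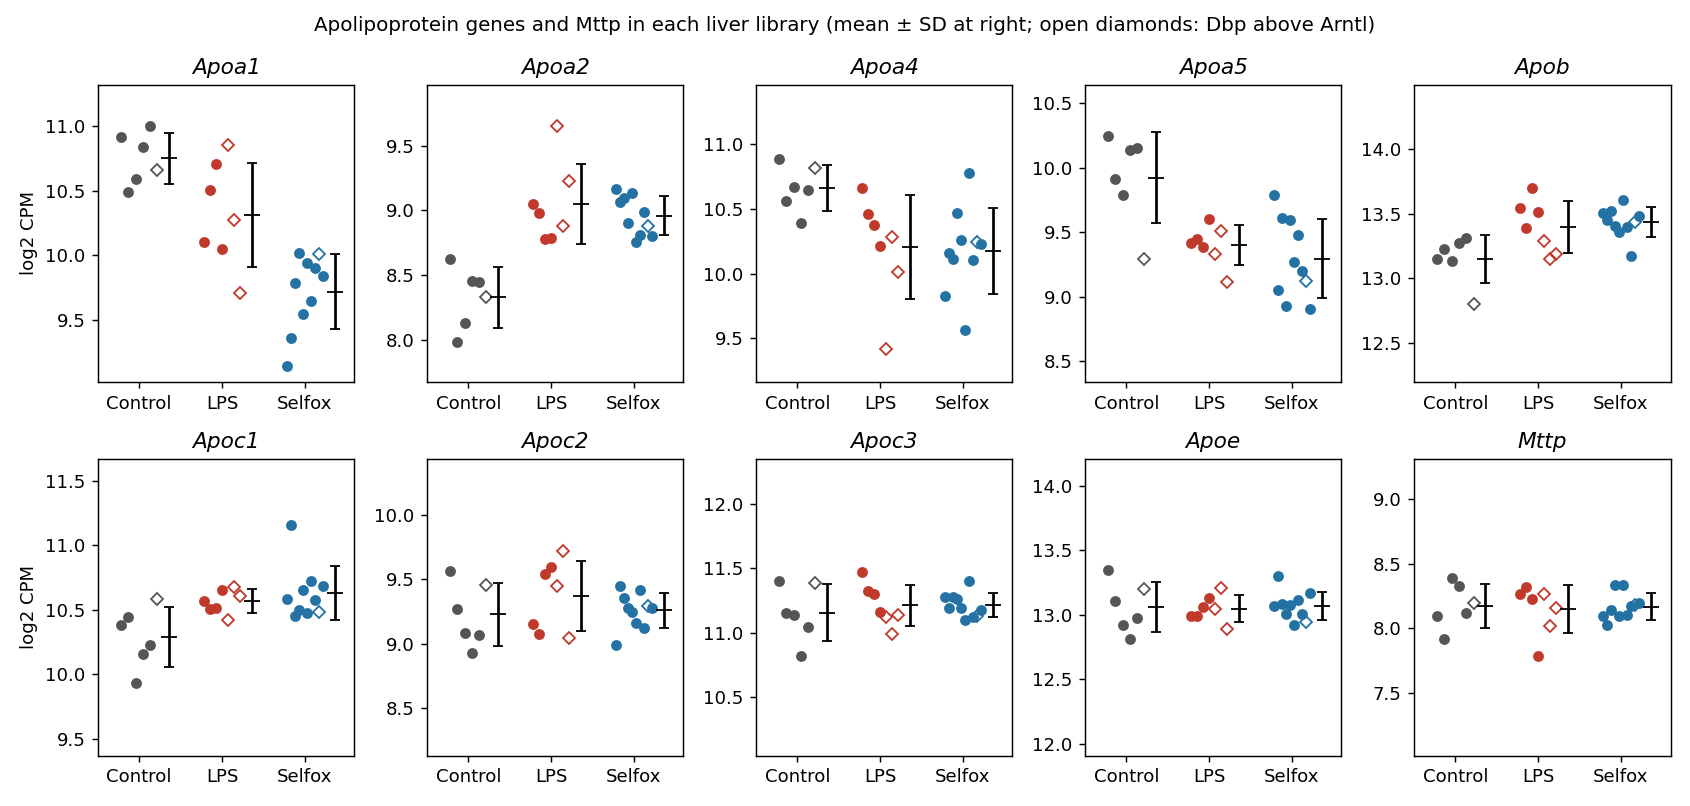
Level of each of the 10 genes in every library, as log2 CPM on the y axis, by group on the x axis. Points are libraries, open diamonds are the 5 libraries with Dbp above Arntl, and bars show the mean and SD of the group; Apoa1 in Selfox and Apoa2 in both treated groups do not overlap Control.

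The transcripts of the 2 HDL proteins were also compared inside each library, where depth and scaling cancel. Such a comparison does not tell which gene moved, and in LPS only Apoa2 passed edgeR's test. The difference of log2 CPM, Apoa1 minus Apoa2, was 2.42 ± 0.10 (SD, n = 6) in Control, with a range of 2.29 to 2.55. It was 1.26 ± 0.45 (n = 7) in LPS, from 0.48 to 1.93, and 0.76 ± 0.41 (n = 10) in Selfox, from -0.020 to 1.19. Neither treated group overlapped Control, but the share of all pairs of genes that separate in this way was not computed. Over 33 such comparisons (11 pairs of genes, chosen after their counts had been seen, in 3 group comparisons), exact two-sided permutation tests over libraries were adjusted together. The shift of Apoa1 minus Apoa2 was -1.16 in LPS (exact p = 0.00117, adjusted 0.00641) and -1.66 in Selfox (exact p = 0.000125, the smallest this design can give, adjusted 0.00206). The Selfox separation and its p-value had to follow, because every Selfox library lay below all Control libraries for Apoa1 and above them for Apoa2. They add no support to the results of the single genes. Between Selfox and LPS the shift of Apoa1 minus Apoa2 was -0.50 (exact p = 0.0297, adjusted 0.0699), which passed without LPS 7, without Selfox 5 or without the 5 libraries with Dbp above Arntl.

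Part of the hepatocyte marker list moved with Apoa1 in Selfox. Alb fell by 0.50 on the log2 scale (edgeR adjusted p = 0.00394), and Serpina1 by 0.35 (adjusted p = 0.000526), whereas Cps1 rose by 0.53 (adjusted p = 0.00222). Over the 9 hepatocyte markers 2 rose and 3 fell, the others being Tf (higher) and Rbp4 (lower), and their summed level was 167600 to 253265 CPM in Control, 141602 to 208152 in LPS and 153913 to 174229 in Selfox. The part of hepatocyte content in the fall of Apoa1 was not tested.

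A row without a gene symbol, AABR07070085.1, followed Apoa1 with a Pearson r of 0.997 in log2 CPM over the 23 libraries. The count of Apoa1 was 3.87 to 4.31 times that of this row in every library. A row named AABR07073400.1 followed Apoa4 in the same way (r of 0.999, ratio 2.19 to 2.30). Whether the reads of 1 gene were split between 2 rows was not tested, and the absolute levels of Apoa1 and Apoa4 are uncertain for that reason. The ratios were close in the 3 groups: for Apoa1 4.09 ± 0.12 in Control, 4.12 ± 0.17 in LPS and 4.19 ± 0.072 in Selfox. With the counts of both rows added to their genes, a setting chosen after seeing the data, the log2 fold change of Apoa1 in Selfox was -1.02 and the calls of Apoa1 and Apoa4 in the 3 comparisons did not change.

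**Figure D2:**
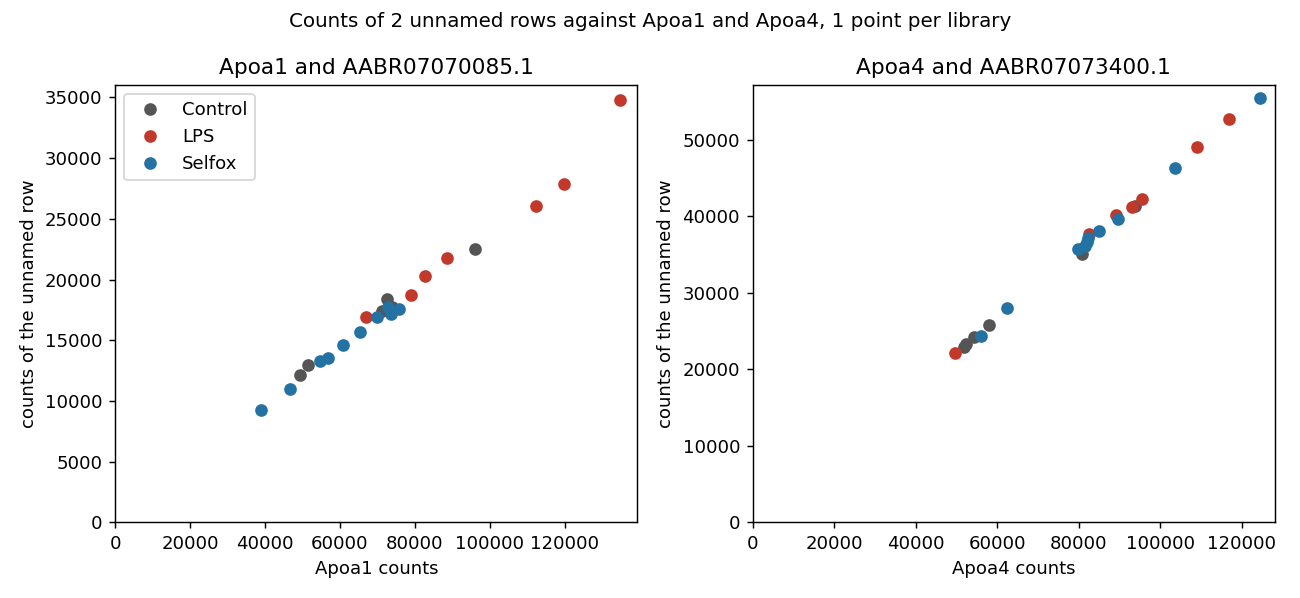
Counts of 2 rows without a gene symbol (y axis, counts) against the counts of Apoa1 (left) and Apoa4 (right) on the x axis, with 1 point per library. The points of the 3 groups lie on nearly straight lines, with count ratios of 3.87 to 4.31 and 2.19 to 2.30.

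Apoa4 and Apoa5 lie side by side with Apoa1 and Apoc3. In the RefSeq annotation of GRCr8 the order along chromosome 8 is Sik3, Apoa1, Apoc3, Apoa4, Apoa5, Zpr1. No label names the build behind the count table, and this order serves as background. Promoters (the 250 bases before each start) are shown for these 2 because both fell in Selfox. RefSeq entries of GRCr8 matched 5 of the 10 genes (Apoa4, Apoa5, Apoc1, Apoc2 and Apoe); Apoa1, Apoa2, Apob, Apoc3 and Mttp had no match. Capitals mark 3 motifs, searched on both strands and chosen after the promoters had been read: AAAGTCCA, a core of HNF4 sites, CACGTG, an E-box bound by basic helix-loop-helix factors, and AGGTCA, the core bound by many nuclear receptors.
Apoa4 promoter, chr8:55435529-55435778, plus strand: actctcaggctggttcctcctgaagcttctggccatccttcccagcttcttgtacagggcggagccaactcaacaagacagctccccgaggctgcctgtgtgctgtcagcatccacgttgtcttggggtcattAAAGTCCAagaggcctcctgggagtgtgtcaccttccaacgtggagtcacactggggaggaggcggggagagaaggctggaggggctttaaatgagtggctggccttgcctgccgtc
Apoa5 promoter, chr8:55457621-55457870, plus strand: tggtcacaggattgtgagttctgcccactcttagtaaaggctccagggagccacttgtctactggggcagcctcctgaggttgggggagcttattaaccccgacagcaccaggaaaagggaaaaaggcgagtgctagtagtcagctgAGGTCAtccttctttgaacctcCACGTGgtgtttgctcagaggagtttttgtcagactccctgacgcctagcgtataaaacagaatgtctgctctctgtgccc
Counted from the first base shown, AAAGTCCA began at position 134 in Apoa4, AGGTCA at 148 and CACGTG at 170 in Apoa5, and these do not overlap. A second Apoa5 entry, whose window overlaps the one shown, held CACGTG at its position 16 and no AGGTCA. Over 33469 RefSeq windows of 300 bases (250 before and 50 after the start), AAAGTCCA was present in 1.37%, CACGTG in 6.42% and AGGTCA in 16.2%. None of the 3 was found in the windows of Apoc1, Apoc2 and Apoe. The motifs were chosen from promoters already read, so this is no contrast between genes. A match is a run of letters and says nothing of binding in these livers.

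Apoa4, an apolipoprotein of gut and, in rodents, liver that accompanies triglyceride-rich particles, was lower in both models on average, and its groups overlapped. Control libraries ran from 1344 through a median of 1617 to 1892 CPM, LPS libraries from 685 through 1247 to 1622, and Selfox libraries from 755 through 1172 to 1762. In Selfox 8 of 10 libraries were below all Control libraries, and in LPS 5 of 7. For Apoa4 the log2 fold change was -0.46 ± 0.15 in Selfox (edgeR adjusted p = 0.0255) and -0.42 ± 0.17 in LPS, which did not pass (edgeR adjusted p = 0.0896). The Selfox call was lost without Control 40, the Control library with the most Apoa4 (-0.42, adjusted p = 0.0620), and the LPS value passed without LPS 1 (-0.51, adjusted p = 0.0486) or with plain total counts (-0.46, adjusted p = 0.0480).

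Apoa5, a scarce plasma protein that promotes triglyceride lipolysis, fell in both models. Its lowest, median and highest levels were 627, 1046 and 1215 CPM in Control, 555, 683 and 777 in LPS, and 479, 604 and 884 in Selfox. The Control group reached down into the treated range through 1 library, Control 55, at 627 CPM; the other 5 Control libraries were above all 7 LPS libraries, and the LPS range lay inside the Selfox range. On the log2 scale Apoa5 changed by -0.55 ± 0.15 in LPS (edgeR adjusted p = 0.0158) and -0.63 ± 0.14 in Selfox (edgeR adjusted p = 0.00139). Both calls held when any single library was left out, with adjusted p-values up to 0.0414 in LPS and 0.00599 in Selfox. The next gene along the chromosome, Zpr1, a zinc finger protein, was also lower: -0.43 in LPS (edgeR adjusted p = 0.0292) and -0.61 in Selfox (edgeR adjusted p = 0.000685). The LPS value of Zpr1 did not pass without Control 40, Control 49, Control 52, LPS 5 or the 5 libraries with Dbp above Arntl (adjusted p-values up to 0.122).

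Apoc3, which slows the clearance of triglyceride-rich particles, lies between Apoa1 and Apoa4 and was set against its neighbours within each library. The log2 CPM of Apoc3 minus that of Apoa4 was 0.49 ± 0.078 in Control, 1.01 ± 0.33 in LPS and 1.04 ± 0.28 in Selfox. Control overlapped neither model, but the share of all pairs of genes that separate in this way was not computed. The shift was 0.52 in LPS (exact permutation p = 0.00117, adjusted 0.00641) and 0.54 in Selfox (exact permutation p = 0.000749, adjusted 0.00618). Apoa1 minus Apoc3 shifted by -1.09 in Selfox (exact permutation p = 0.000125, adjusted 0.00206). In LPS its shift of -0.49 did not pass (exact permutation p = 0.0443, adjusted 0.0913), except without LPS 5 (adjusted p = 0.0325). Apoa1 minus Apoc3 was also lower in Selfox than in LPS, by -0.59 (exact permutation p = 0.00566, adjusted 0.0187), though not past the threshold without the 5 libraries with Dbp above Arntl (adjusted p = 0.0538). Apoc3 minus Apoa5 shifted by 0.68 in Selfox (exact permutation p = 0.00362, adjusted 0.0149) and by 0.58 in LPS (exact permutation p = 0.0192, adjusted 0.0488), the latter lost in 11 of 13 runs that left out 1 library, all but those without Control 55 or LPS 6. Within the falling neighbours, Apoa1 fell further than Apoa4 in Selfox (-0.54, exact permutation p = 0.0124, adjusted 0.0340), a call lost without Control 40, Control 49, Control 52, Selfox 1, Selfox 4 or Selfox 10. In LPS Apoa1 minus Apoa4 shifted by 0.023 (exact permutation p = 0.955, adjusted 0.955). Apoa1 minus Apoa5 shifted by -0.40 in Selfox (exact permutation p = 0.110, adjusted 0.174) and by 0.084 in LPS (exact permutation p = 0.673, adjusted 0.811), and neither passed. Nor did Apoa4 minus Apoa5, with 0.14 in Selfox and 0.061 in LPS (exact permutation, adjusted p = 0.722 and 0.870).

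Apob, the backbone protein of VLDL, rose slightly in Selfox. Control libraries held 7130 CPM at the lowest, 9346 at the median and 10167 at the highest. LPS libraries held 9087, 10740 and 13286 CPM, and Selfox libraries 9242, 11143 and 12513 CPM. The highest Control library overlapped both models, but 9 of 10 Selfox libraries and 4 of 7 LPS libraries stood above it. The fitted log2 fold change of Apob was 0.28 ± 0.089 in Selfox (edgeR adjusted p = 0.0206), and the call was lost without Control 55, the lowest of all libraries (0.22, adjusted p = 0.0576). In LPS it was 0.25 ± 0.095 (edgeR adjusted p = 0.0806), which passed without LPS 6 (0.29, adjusted p = 0.0459), without the 5 libraries with Dbp above Arntl (0.31, adjusted p = 0.0228) and with the clock as a covariate (0.30, adjusted p = 0.0175).

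Mttp, which transfers lipid to Apob in the endoplasmic reticulum, lay at 241 to 335 CPM in Control, 221 to 319 in LPS and 260 to 324 in Selfox, with medians of 286, 299 and 285. Its groups overlapped throughout. The log2 fold change was -0.023 in LPS with a 95% interval from -0.20 to 0.15, and -0.0093 in Selfox with an interval from -0.17 to 0.16 (edgeR adjusted p = 0.893 and 0.944). Apob minus Mttp was 4.98 ± 0.27 in Control and 5.27 ± 0.14 in Selfox, a shift of 0.29 (exact permutation p = 0.00999, adjusted 0.0300). In LPS it was 5.25 ± 0.27, and the shift of 0.27 did not pass (exact permutation p = 0.101, adjusted 0.166). The Selfox call did not hold without Control 46, Control 49, Control 55, Selfox 1 or Selfox 10, nor without the 5 libraries with Dbp above Arntl (0.21, adjusted p = 0.100).

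Apoc1, Apoc2 and Apoe form a cluster on chromosome 1 in GRCr8, in the order Clptm1, Apoc2, Apoc4, Apoc1, Apoe, Tomm40, and they did not move alike. Apoc1, a small apolipoprotein that hinders receptor uptake of remnants, was at 979 CPM at the lowest, 1264 at the median and 1537 at the highest in Control. In LPS these were 1367, 1521 and 1639 CPM, and in Selfox 1397, 1527 and 2282 CPM. In Selfox the lowest library was above 5 of the 6 Control libraries, and Selfox 10 alone reached 2282 CPM. For Apoc1 the log2 fold change was 0.34 ± 0.10 in Selfox (edgeR adjusted p = 0.0137), and it stayed past the threshold when any single library was left out (adjusted p up to 0.0388). In LPS it was 0.26 ± 0.11 (edgeR adjusted p = 0.102), which passed without Control 55 (0.33, adjusted p = 0.0380) and with limma voom (0.31, adjusted p = 0.0284).

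Apoc2, the activator of lipoprotein lipase, overlapped in all groups: 488 to 757 CPM in Control, 529 to 843 in LPS and 508 to 699 in Selfox. Its log2 fold change was 0.14 in LPS (95% interval -0.10 to 0.39, edgeR adjusted p = 0.439) and 0.019 in Selfox (-0.20 to 0.24, adjusted p = 0.915). Apoc3 lay at 1807 to 2703 CPM in Control, 2031 to 2835 in LPS and 2186 to 2703 in Selfox. Its log2 fold change was 0.051 in LPS (-0.13 to 0.24, edgeR adjusted p = 0.754) and 0.044 in Selfox (-0.13 to 0.22, adjusted p = 0.726). The intervals of both genes therefore allow changes of up to 0.39 on the log2 scale.

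Apoe, the ligand through which remnants are taken up, had nearly equal group means of 8602 ± 1174 (SD, n = 6), 8467 ± 616 (n = 7) and 8605 ± 680 CPM (n = 10) in Control, LPS and Selfox. Its libraries ran from 7204 to 10413 CPM in Control, 7568 to 9460 in LPS and 7757 to 10065 in Selfox. The log2 fold change was -0.023 in LPS (95% interval -0.20 to 0.15, edgeR adjusted p = 0.890) and 0.00053 in Selfox (-0.16 to 0.16, adjusted p = 0.997). Apoe is also made by macrophages, and the 9 Kupffer cell and macrophage markers differed between groups: their summed level was 635 to 877 CPM in Control, 554 to 846 in LPS and 261 to 370 in Selfox, where 8 of 9 fell, with a median log2 fold change of -1.26 (Marco -2.94, Vsig4 -2.03, Clec4f -1.68). Cd14, the 1 marker of the 9 that rose in Selfox, went from 28.1 CPM in Control to 53.2 CPM on average. The part of Kupffer cells and macrophages in the level of Apoe was not tested.

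Within each library, Apoc1 was set against its neighbours. Apoe minus Apoc1 was 2.77 ± 0.17 in Control, 2.48 ± 0.11 in LPS and 2.44 ± 0.12 in Selfox. The shift was -0.29 in LPS (exact permutation p = 0.00175, adjusted 0.00824) and -0.33 in Selfox (exact permutation p = 0.000250, adjusted 0.00275). Without the 5 libraries with Dbp above Arntl the LPS shift did not pass (adjusted p = 0.0561). Apoc1 minus Apoc2 rose by 0.31 in Selfox (exact permutation p = 0.00500, adjusted 0.0183), a call lost without Control 40 (adjusted p = 0.0504), and by 0.14 in LPS, which did not pass (exact permutation p = 0.301, adjusted 0.432). Apoe minus Apoc2 shifted by -0.023 in Selfox and -0.16 in LPS, and neither passed (exact permutation, adjusted p = 0.811 and 0.133).

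**Figure D3:**
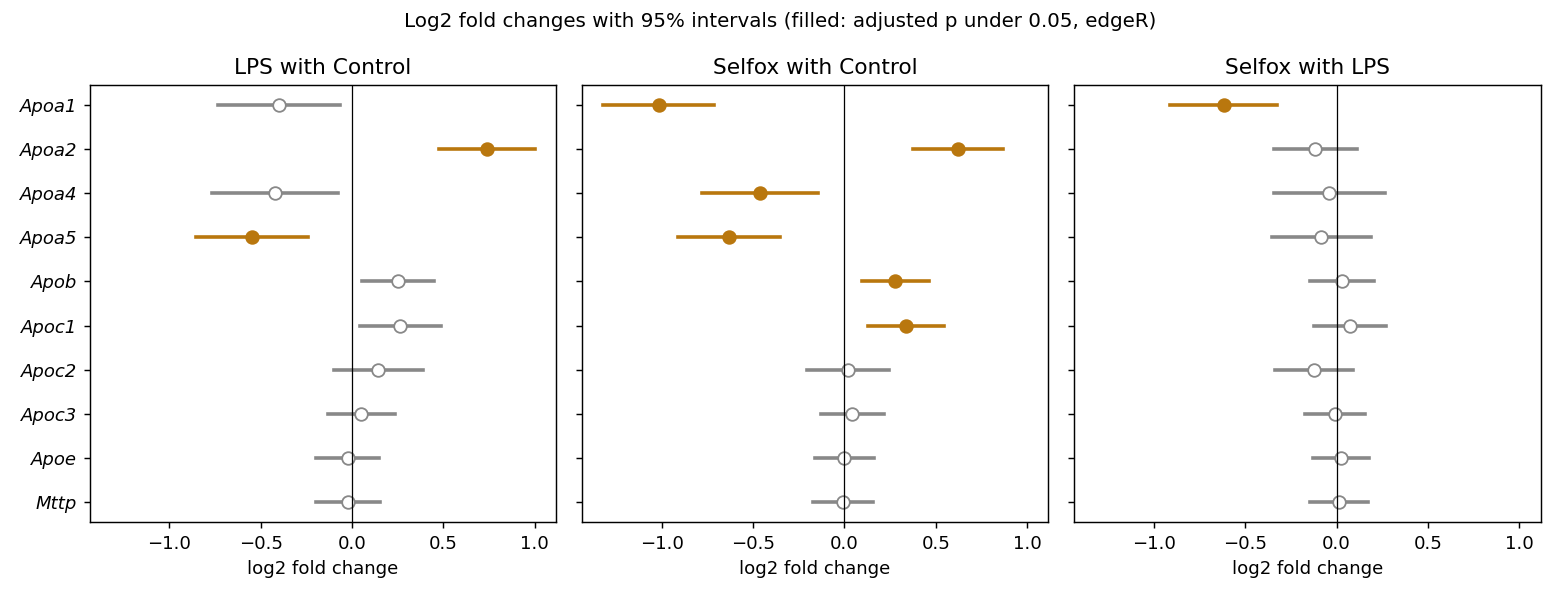
Log2 fold change (x axis) of the 10 genes (y axis) in the 3 comparisons, with 95% intervals as bars and filled points for an edgeR adjusted p under 0.05. In Selfox with Control 3 genes are filled on each side of 0, and Apoc3, Apoe and Mttp lie between -0.023 and 0.051 in all 3 panels.

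Between Selfox and LPS, the other 9 genes had log2 fold changes from -0.13 (Apoc2) to 0.075 (Apoc1), none past the threshold in edgeR's test. Apoa1 was the only one of the 10 whose 95% interval did not include 0. The widest of the other intervals belonged to Apoa4, from -0.34 to 0.27. No gene of the 10 had Selfox and LPS libraries without overlap, a separation seen in 1.74% of all genes (0.743% higher and 1% lower).

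**Figure D4:**
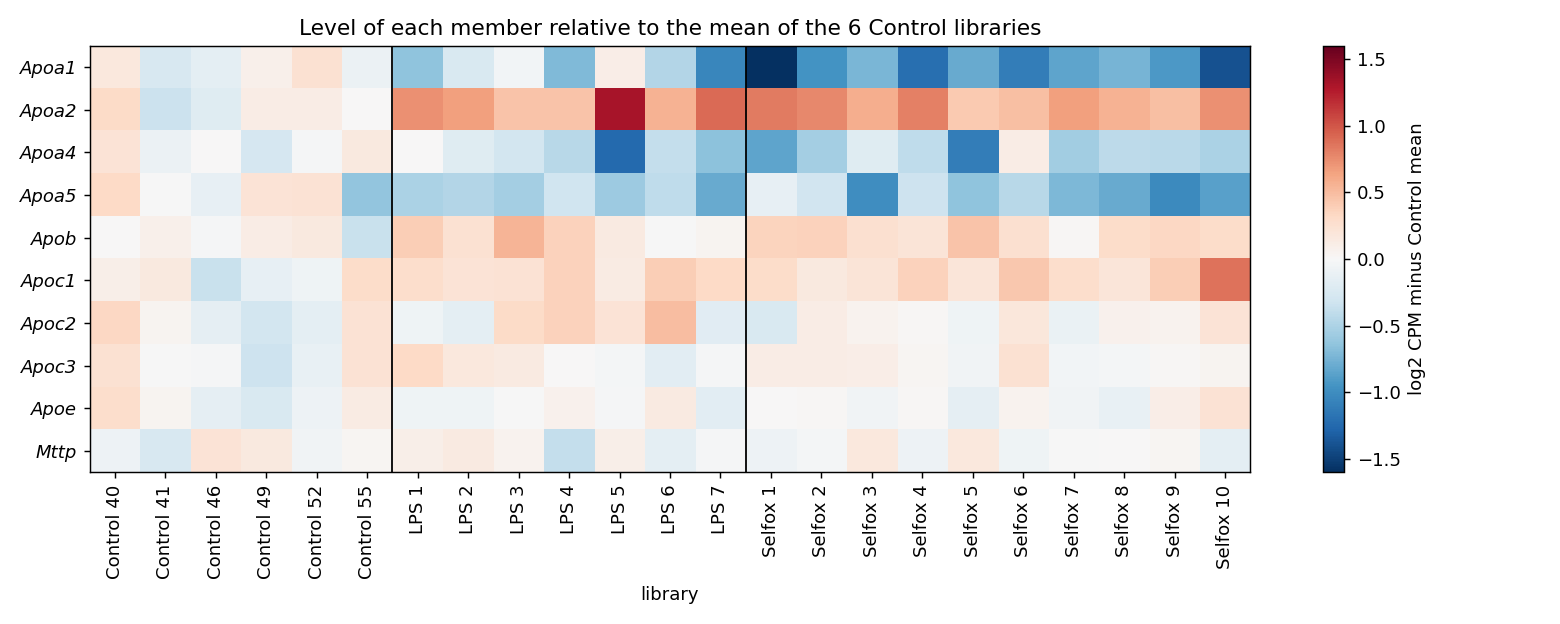
Log2 CPM of the 10 genes (rows) in the 23 libraries (columns) minus the mean of the 6 Control libraries, by colour. Apoa1 is blue in all Selfox libraries, Apoa2 is red in all treated libraries, and Apoe and Mttp stay pale.

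The spread between libraries of a group also differed among genes. In Selfox the coefficient of variation was 6.55% for Apoc3, 7.30% for Mttp, 7.84% for Apob and 7.90% for Apoe, against 22.99% for Apoa4, 21.6% for Apoa5 and 18.7% for Apoa1. After removal of the group means, the 45 pairs of genes had a median Pearson r of -0.0033 over the 23 libraries, and 22 pairs were positive. Apoe rose and fell with its neighbours Apoc2 (r of 0.80) and Apoc1 (0.71), and Apoa4 with its neighbour Apoc3 (0.58); these were the 3 pairs over 0.5. Mttp ran against Apoc1 (-0.59) and Apoe (-0.58). These correlations describe libraries that share their depth and scaling within a column, and no test is attached. LPS 5 held the highest Apoa1 and Apoa2 and the lowest Apoa4 of its group. LPS 7 held the lowest Apoa1, Apoa5, Apoc2 and Apoe of its group.

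Other genes of lipoprotein metabolism were read from 6 lists, whose counts stand beside 7.71% of all genes higher and 6.99% lower in LPS, 14.2% higher and 14.9% lower in Selfox, and 6.86% higher and 7.64% lower in Selfox against LPS. Among 12 tested genes of other apolipoproteins and Apob mRNA editing, 2 rose and 1 fell in LPS, and 2 rose and 2 fell in Selfox, with medians of 0.072 and 0.12 on the log2 scale. The count of 2 that rose in Selfox was 1 without Control 40 or Control 52. Apobec1, the deaminase that edits Apob mRNA in rat liver, rose by 0.75 ± 0.17 in LPS (edgeR adjusted p = 0.00453), from 4.32 to 7.28 CPM. Its cofactor A1cf rose by 0.34 in LPS (edgeR adjusted p = 0.0334), a call lost without any of 6 libraries (Control 40, 49 or 52, LPS 1, 3 or 6), with adjusted p-values up to 0.0869. It was also lost without the 5 libraries with Dbp above Arntl, with upper-quartile factors, with total counts and with the 2 groups alone (adjusted p up to 0.0947). In each of these 10 settings 1 gene of the list rose in LPS in place of 2. Apol9a, of the intracellular apolipoprotein L family, fell by 1.25 in LPS (edgeR adjusted p = 0.000657) and by 0.85 in Selfox (adjusted p = 0.00214). Apoh, a phospholipid-binding plasma protein, fell by 0.33 in Selfox (edgeR adjusted p = 0.00456), and Apoo, a mitochondrial protein in spite of its name, rose by 0.30 (adjusted p = 0.0196, lost without Control 40).

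Of 23 tested genes for the lipid loading and secretion of VLDL, 3 rose and 3 fell in LPS and 7 rose and 2 fell in Selfox, with medians of 0.083 and 0.13. The number that rose in LPS was 1 without LPS 5, 5 without Control 40 or LPS 4, and 7 without Control 55 or with limma voom. In Selfox it was 4 without Control 46 or Control 49. Fitm2, which helps lipid droplets bud from the endoplasmic reticulum, fell by 0.81 ± 0.16 in LPS (edgeR adjusted p = 0.00231) and by 0.96 ± 0.15 in Selfox (adjusted p = 7.85e-05), with every treated library below every Control library. Dgat1, an enzyme of the last step of triglyceride synthesis, fell by 0.27 in LPS (edgeR adjusted p = 0.0152) and 0.28 in Selfox (adjusted p = 0.00302). Ttc39b, linked to plasma HDL through the turnover of the sterol receptor LXR, rose by 0.39 in LPS (edgeR adjusted p = 0.0124) and 0.48 in Selfox (adjusted p = 0.000644). Vmp1, a scramblase of the endoplasmic reticulum, was the single gene of the list that differed between the models, higher in Selfox by 0.42 (edgeR adjusted p = 0.00759), though not without the 5 libraries with Dbp above Arntl (adjusted p = 0.0549).

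Of 10 tested genes of HDL formation and remodelling, 1 rose and 4 fell in Selfox (median -0.11), 1 rose and 1 fell in LPS (median 0.12), and 4 were lower in Selfox than in LPS (2 without the 5 libraries with Dbp above Arntl). In LPS 2 rose and 2 fell without Control 55 or with limma voom, and 2 fell without those 5 libraries. In Selfox 2 rose without them or with limma voom. Pltp, the phospholipid transfer protein, was at 45.2 CPM in Control, 49.5 in LPS and 23.3 in Selfox on average. Its log2 fold change was -0.95 ± 0.12 in Selfox against Control (edgeR adjusted p = 5.57e-06) and -1.08 ± 0.11 against LPS (adjusted p = 8.12e-07), with no overlap in either. Scarb1, the HDL receptor, fell by 0.67 ± 0.10 in Selfox (edgeR adjusted p = 5.41e-05) and was lower by 0.40 than in LPS (adjusted p = 0.00670). Lcat, whose activator is Apoa1, fell by 0.37 in LPS (edgeR adjusted p = 0.00440) and 0.47 in Selfox (adjusted p = 0.000106), and Lpgat1, an acyltransferase, rose by 0.43 in LPS (adjusted p = 0.00126). Abcg1, a cholesterol exporter, was lower in Selfox than in LPS by 0.46 (edgeR adjusted p = 0.0140), but not without the 5 libraries with Dbp above Arntl (adjusted p = 0.127). Pltp, Abcg1 and Scarb1 are also made by macrophages. The summed level of the 9 macrophage markers was 261 to 370 CPM in Selfox, against 635 to 877 in Control, with 8 of 9 lower and Cd14 higher. The part of macrophages in these values was not tested.

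Of 9 tested genes for plasma triglyceride lipolysis, 2 rose in LPS and 3 rose in Selfox at an edgeR adjusted p under 0.05; the medians were 0.25 and 0.11. Angptl8, a hormone-like inhibitor of lipoprotein lipase made by the fed liver, rose by 2.35 ± 0.54 in LPS (edgeR adjusted p = 0.00602), from 23.7 to 121 CPM on average, and had a value of 1.09 in Selfox that did not pass (adjusted p = 0.0962). Angptl4, another inhibitor of the lipase, rose by 1.58 ± 0.48 in Selfox (edgeR adjusted p = 0.0163), where 5 of 10 libraries exceeded all Control libraries. Cd36, a fatty acid carrier, rose by 0.88 in Selfox (edgeR adjusted p = 0.0104). The difference of Angptl4 between Selfox and LPS (1.33, edgeR adjusted p = 0.0488) did not hold in 12 of the 17 runs that left out 1 library, among them each run without an LPS library.

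Of 12 tested uptake receptors and regulators, 2 rose in LPS (median 0.098), 2 fell in Selfox (median 0.078), and 6 were lower in Selfox than in LPS (median -0.23). That count of 6 was 3 with a replicate block over 14 libraries. None fell in LPS in the main fit, but 1 did without Control 55, without the 5 libraries with Dbp above Arntl or with limma voom. Lsr, a receptor for triglyceride-rich particles, rose by 0.36 in LPS (edgeR adjusted p = 0.0100). Mylip, a ligase that sends the LDL receptor to degradation, fell by 0.84 ± 0.18 in Selfox (edgeR adjusted p = 0.00146), from 4.19 to 2.34 CPM.

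Of 23 tested transcription factors known to act on apolipoprotein genes, 2 rose and 1 fell in LPS (median 0.010) and 5 rose and 8 fell in Selfox (median -0.12). The number that rose in LPS was 5 without Control 55, and 1 without Control 40, 46, 49 or 52, without LPS 7, with total counts or with the 2 groups alone. The number that fell in Selfox was 5 without Control 41 or Control 49, and 4 without Control 52 or with no filter. Creb3l3, a liver factor of the endoplasmic reticulum known to drive Apoa4 and Apoa5 among other genes, fell by 0.52 ± 0.10 in LPS (edgeR adjusted p = 0.00212) and by 0.66 ± 0.096 in Selfox (adjusted p = 3.32e-05). All 10 Selfox libraries lay below all Control libraries. Hnf4a, a nuclear receptor, fell by 0.53 ± 0.091 in Selfox (edgeR adjusted p = 0.000198), from 708 to 492 CPM. Any part of Creb3l3 or Hnf4a in the levels of the 10 genes was not tested. Nr0b2, a repressor induced by bile acids, fell by 1.95 ± 0.30 in Selfox (edgeR adjusted p = 9.02e-05) and was lower by 1.90 than in LPS (adjusted p = 0.000175), with no overlap in either. Srebf1, the factor of fatty acid synthesis, rose by 1.68 ± 0.40 in LPS (edgeR adjusted p = 0.00741), and Nr1h4, the bile acid receptor, by 0.40 (adjusted p = 0.0276, lost without Control 40, 46, 49 or 52 or LPS 7, with total counts and with the 2 groups alone, with adjusted p up to 0.0790). Foxa3 was lower in Selfox than in LPS by 0.66 (edgeR adjusted p = 0.0181), though not without the 5 libraries with Dbp above Arntl or with the clock as a covariate (adjusted p up to 0.145). Further genes of the 6 lists that made up counts of 5 or fewer without being picked by adjusted p are named here after their values had been seen. In LPS these were Smlr1 and Lpcat3 (higher) and Vmp1 (lower) of VLDL loading. In Selfox against Control they were Apobec1, Lpgat1, Nr1h3, Nr1h4, Srebf1 and Prox1 (higher) and Abcg1 (lower), and against LPS Abca1 (lower).

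**Figure D5:**
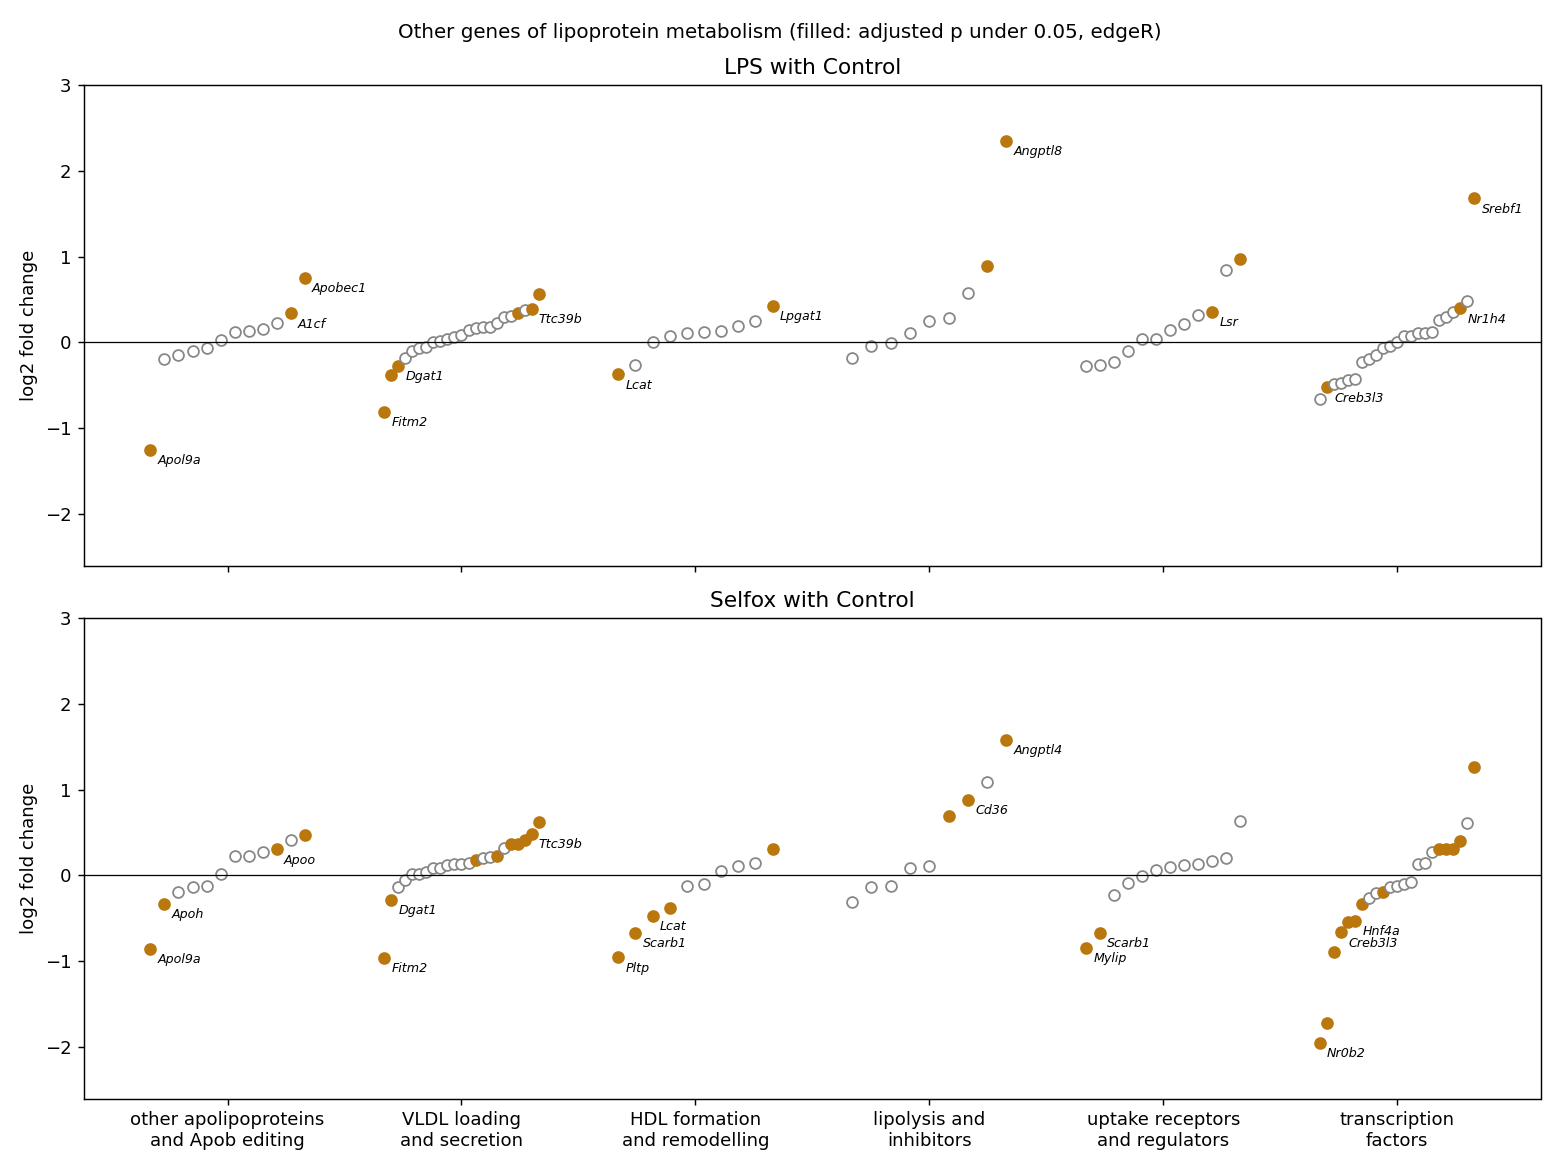
Log2 fold change (y axis) of every tested gene of 6 lists of lipoprotein metabolism (x axis, sorted within each list) in LPS with Control (top) and Selfox with Control (bottom). Filled points have an edgeR adjusted p under 0.05 and labels name genes with the lowest adjusted p in each list, at most 3; among 10 genes of HDL formation 4 are filled below 0 in Selfox.

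Across the 23 libraries, and among 10548 genes whose log2 CPM averaged 1 or more, the pattern of each gene was compared with all others by Pearson's r, as a description over libraries that share scaling. Leaving aside the 2 rows without a symbol, Apoa1 was most like Pglyrp2 (r of 0.86), a liver amidase that cleaves bacterial peptidoglycan, and Apoa4 most like Cct7 (0.77), a chaperonin subunit. Apoa2 was most like Hoga1 (0.84) and Dglucy (0.84), both enzymes of mitochondrial amino acid breakdown. Apoa5 was most like Ciapin1 (0.88) and its neighbour Zpr1 (0.88), Apob like Tmcc3 (0.81) and Pdcl3 (0.79), and Apoc1 like Apbb3 (0.85) and Prodh1 (0.82). Apoc2 was most like Pnpla4 (0.81) and Hsf2 (0.80), and Apoc3 like Ndufs8 (0.79) and Vps28 (0.79). The gene most like Apoe was its cluster neighbour Apoc2 (0.75), followed by mrpl11 (0.73). Mttp had the loosest companions, Tnfrsf9 (0.69) and Pex3 (0.63). These r values include the differences between groups. With the group means removed, r for the same pairs ran from 0.54 (Apoa2 with Dglucy) to 0.84 (Apoc2 with Pnpla4). For Apoa1 with Pglyrp2 it was 0.61.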

How the data were processed

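Poly(A) RNA of 23 rat liver libraries (6 Control, 7 LPS and 10 Selfox) was sequenced, and the deposited table gives whole-number read counts per gene. By the submitters' processing notes, the authors used FastQC, Trim Galore, STAR 2.7.9a and featureCounts of Subread 2.0.3. The build, annotation and strand setting were not given in the sources used, and genes that share reads with a near copy or an overlapping gene are uncertain. No transcript lengths were used, so levels were compared between groups and not between genes. The labels do not say that each library is another rat, and p-values reflect only how these libraries vary, which may be technical.

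The 10 genes and all lists were chosen with earlier results of these data known. Genes were kept by filterByExpr (minimum count 10; 15079 of 21753 genes with any count, 99.99% of counts), scaled by TMM and fitted over all 23 libraries with edgeR 4.0.16 (R 4.3.3), robust quasi-likelihood F tests, Benjamini-Hochberg adjustment over 15079 genes and a threshold of 0.05. The biological coefficient of variation was 0.235. SE was taken as the absolute log2 fold change over the root of the F statistic. CPM used TMM-scaled totals, and log2 CPM a prior count of 2. Differences between 2 genes within a library were tested by exact permutation. The script was tested on simulated data. From each other list, up to 3 genes past the threshold were named by adjusted p (2 by adjusted p where none passed), and for each of the 10 genes the 2 with the highest Pearson r. Some genes picked by these rules are not reported here. The alternatives were other scaling factors, filters, DESeq2 1.42.0, limma 3.58.1 voom, other sets of libraries, a clock covariate and a replicate block.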

Additional observations from a re-analysis of the deposited data

Results flagged for a closer look

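Of 30 groups of libraries (10 genes in 3 groups), 2 held a library far from the others, where chance alone gives about 1 in 20. Control 55 had the lowest Apob, at 12.80 log2 CPM, where the other Control libraries lay between 13.14 and 13.31. Selfox 10 had the highest Apoc1, at 11.16 log2 CPM, where the other Selfox libraries lay between 10.45 and 10.72. The third result is a difference between the models: Apoa1 was lower in Selfox than in LPS, with a log2 fold change of -0.62 (edgeR adjusted p = 0.00492), and 4 of 10 Selfox libraries were below all LPS libraries.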

How the results depend on the processing

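In Selfox against Control the calls of Apoa1, Apoa2, Apoa5 and Apoc1 held in all 29 alternatives, with Apoa1 between -1.07 and -0.95; in Selfox against LPS the call of Apoa1 held in all 32 (-0.70 to -0.52). In LPS against Control the calls of Apoa2 (0.55 to 0.80) and Apoa5 (-0.65 to -0.48) held in all 26. The number of the 10 genes called lower in LPS was 2 in place of 1 with total counts, and the number called higher was 2 with limma voom, without the 5 libraries with Dbp above Arntl and with the clock covariate. Leaving out 1 library gave 1 to 2 higher (2 without Control 55 or LPS 6) and 1 to 2 lower (2 without LPS 1 or LPS 5). Over all genes in LPS against Control it gave 707 to 1430 higher and 702 to 1293 lower against 1163 and 1054, the lowest counts without Control 49. Without the 5 libraries, 740 genes were lower in Selfox than in LPS, against 1152. The cause of these changes was not tested.

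Signs turned where values lay near 0. Apoe in Selfox with Control was -0.0053 with upper-quartile factors, -0.014 with total counts, -0.0018 with factors taken without the 10 genes and Alb, and -8.2e-05 with the 2 groups alone. Apoc3 in Selfox with LPS was 0.011 with upper-quartile factors, 0.012 with total counts and 0.00059 at a minimum count of 50. Mttp in Selfox with Control was 0.0098 without a filter. Limma voom gave Apoe 0.012 and Mttp 0.0058 in LPS with Control, and Apob -0.0049 and Mttp -0.017 in Selfox with LPS. Without the 5 libraries, Selfox with LPS gave Apoa2 0.074, Apob -0.099, Cdh17 0.89, Slc4a1 -0.076 and Ciart 0.68, Apoa4 minus Apoa5 -0.11 and Apob minus Mttp -0.12; Fabp2 in Selfox with Control was -0.044 and Apoa1 minus Apoa4 in LPS with Control -0.22. The clock covariate gave Apob -0.055, Cdh17 0.50, Slc4a1 -0.057 and Ciart 0.11 in Selfox with LPS.

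Leaving out 1 library, LPS with Control ranged from -0.016 to 0.10 for Apoc3, -0.074 to 0.039 for Apoe, -0.073 to 0.031 for Mttp, -0.046 to 0.17 for Fabp2, -0.20 to 0.14 for Apoa1 minus Apoa4, -0.018 to 0.19 for Apoa1 minus Apoa5 and -0.037 to 0.22 for Apoa4 minus Apoa5. Selfox with Control ranged from -0.038 to 0.092 for Apoc2, -0.018 to 0.095 for Apoc3, -0.047 to 0.063 for Apoe, -0.047 to 0.046 for Mttp and -0.0062 to 0.20 for Fabp2. Selfox with LPS ranged from -0.16 to 0.0058 for Apoa2, -0.14 to 0.054 for Apoa4, -0.0086 to 0.085 for Apob, -0.042 to 0.050 for Apoc3, -0.0038 to 0.052 for Apoe, -0.040 to 0.043 for Mttp, -0.15 to 0.049 for AABR07073400.1, -1.88 to 0.42 for Cdh17, -0.028 to 0.14 for Apoc3 minus Apoa4, -0.042 to 0.17 for Apoa4 minus Apoa5 and -0.019 to 0.099 for Apob minus Mttp.

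LPS and Selfox share replicate numbers 1 to 7, but same-numbered libraries did not deviate together (r from -0.059 to 0.16, and only number 5 correlated best with its own). A replicate block over these 14 libraries gave 558 genes higher and 701 lower in Selfox than in LPS, against 767 and 850 in the same libraries unblocked, and kept the call of Apoa1. With the block Apoa5 was 0.014, Apoc3 0.022 and Apoe -0.0018, and unblocked 0.031, 0.018 and -0.0042.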
